A study of Mus musculus with 3 samples.

Results

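The clustered protocadherin locus of the mouse lies on chromosome 18 and holds the arrays Pcdha, Pcdhb and Pcdhg, in that order. It was taken as all listed CCCGGG sites from position 37085000 to 38005000 of chromosome 18 (mm9), which gave 74 of the 173449 sites listed for the genome. Pcdha (37085000 to 37350000) held 20 sites, Pcdhb (37400000 to 37700000) held 25, Pcdhg (37800000 to 38005000) held 21, and 8 lay between the arrays. The samples are 3 ID8 libraries. ID8 is an ovarian cancer line from C57BL/6 mice, described as ovarian surface epithelial cells of a female, grown untreated in RPMI medium with serum. They form 1 group with no control and no normal ovarian cells beside them, so the levels describe this line alone. Methylation was read by digital restriction enzyme analysis of methylation, in which SmaI cuts unmethylated CCCGGG sites and XmaI then cuts the methylated ones, so that each read reports the state of the site at its end.

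Clustered protocadherins are cell adhesion molecules known best from neurons. In Pcdha and Pcdhg each variable first exon has its own promoter and is joined to constant exons shared by the whole array, whereas the Pcdhb genes have no shared constant exons. Neurons choose a few of these promoters each, DNA methylation is known to accompany promoters that are not chosen, and the locus is known to gain methylation in several kinds of tumour. The RefSeq table (GRCm38) names 14 Pcdha genes, of which 2 are of the C type (Pcdhac1 and Pcdhac2), 22 Pcdhb genes, and 22 Pcdhg genes with 3 of the C type (Pcdhgc3, Pcdhgc4 and Pcdhgc5) and 1 pseudogene (Pcdhgb8). The table is on another build than the files, so no site is assigned to a gene, an exon or a promoter, and sites are given by array and position.

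Most of the locus was read thinly. The libraries held 7689526, 9190335 and 10361138 reads in replicates 1, 2 and 3, of which 392, 542 and 620 lay in the locus. Of the 74 sites, 44 had a read in some library, 26 had a read in every library, 13 had at least 10 reads summed over the libraries, and 4 had at least 10 reads in every library. These 4, called covered sites here, lay in Pcdha (3) and Pcdhg (1) and held 1236 of the 1554 reads of the locus. Pcdhb had 72 reads in all and 0 covered sites, so its level could not be set beside the other arrays at this depth.

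The locus was not short of CCCGGG sites. It held 8.04 listed sites per 100 kb, against 6.06 on the rest of chromosome 18, but they stood apart: 74.3% of them had no other listed site within 1 kb, against 67.8% elsewhere on the chromosome. The covered share was 5.41% in the locus and 12.1% on the rest of the chromosome, or 11.7% once those sites were weighted to the same distances to the nearest listed site. Of 94 other windows of 920 kb on chromosome 18, 20 listed at least as many sites as the locus, and 0 of those 20 had as few covered sites. Over all 94 windows the median was 5 covered sites, and 44 windows had 4 or fewer.

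**Figure D1:**
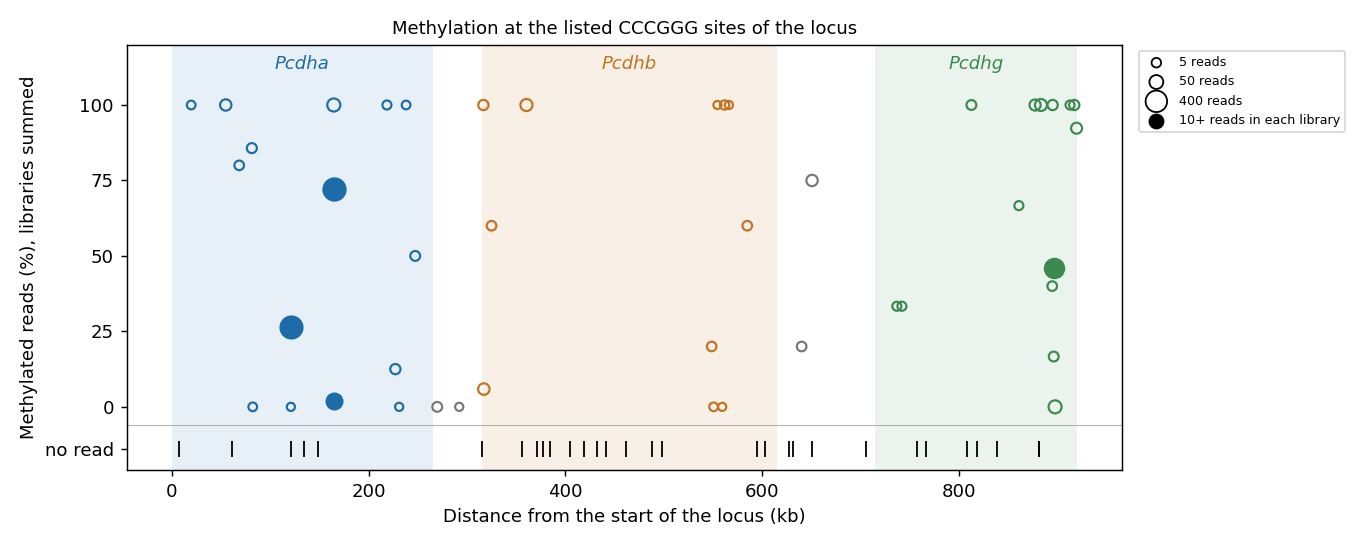
Position of each listed site of the locus (x axis, kb from its start) against the methylated percent of its reads summed over the 3 libraries (y axis). Circles grow with the number of reads, filled circles are the 4 covered sites, ticks are the 30 sites with no read, and the shaded bands are the arrays; fully methylated, mixed and unmethylated sites stand in each array, and a stretch of Pcdhb has ticks alone.

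The share of sites with no read was highest in Pcdhb. No library read 14 of its 25 sites (56.0%), against 28.6% of other chromosome 18 sites weighted to the same distances. In Pcdha 5 of 20 sites (25%) and in Pcdhg 7 of 21 (33.3%) were unread, against 32.7% and 28.4% of sites at like distances. Between the arrays 4 of 8 sites (50%) were unread, against 31.7% at like distances. The Pcdhb count came from 10 consecutive sites, from 37456472 to 37583106, a run of 127 kb in which nothing was read. The last site read before it was at 37445350 and the first after it at 37633555, 188 kb apart. Without these 10 sites, 4 of the remaining 15 Pcdhb sites (26.7%) were unread. The 10 were left out because they were unread, so the share had to fall. It cannot be set beside the 28.6%, which keeps the unread stretches of the other sites. The rest of chromosome 18 held 16 stretches of at least 10 consecutive unread sites, the longest with 23. A run of this many unread sites was therefore not particular to Pcdhb. Those stretches were not matched for spacing or length, and spanned from 11.8 kb to 416 kb. At each unread site a count of 0 allows up to 3 reads per library. Whether reads of the similar Pcdhb genes can be placed uniquely was not tested.

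**Figure D2:**
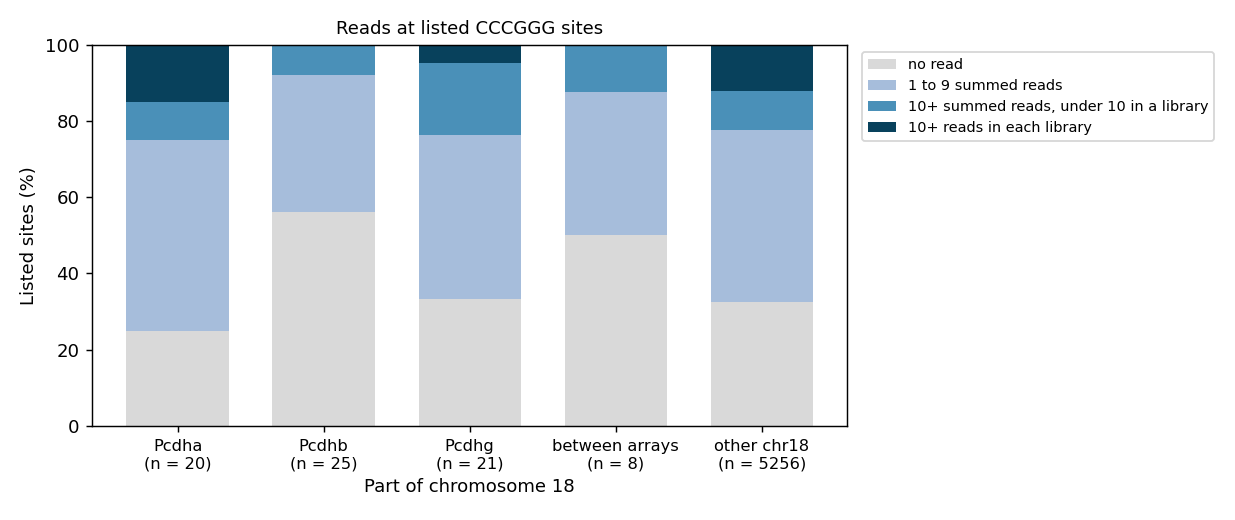
Share of listed sites (y axis, percent) by the number of reads they held, for each array, the sites between arrays and the rest of chromosome 18; n is the number of listed sites. Pcdhb has 0 sites with 10 or more reads in every library and the highest share of unread sites, 56.0%.

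The covered Pcdha sites differed widely in methylation. Their means ran from 1.69% to 72.3%, with 1 site in each class: low (under 10%), partial (10% to under 70%) and high (70% or more). The site at 37205718 was partly methylated, in 33 of 92 reads (35.9%) in replicate 1, 36 of 146 (24.7%) in replicate 2 and 48 of 202 (23.8%) in replicate 3, a mean of 28.1% ± 6.75 (SD, n = 3). Replicate 1 was the highest there, and its exact Clopper-Pearson interval (95%), 26.1% to 46.5%, overlapped those of replicates 2 (17.9% to 32.5%) and 3 (18.1% to 30.2%).

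A second place in Pcdha, about 44 kb further on, went from methylated to unmethylated within 204 bp. The site at 37249548 was methylated in all of its 7, 14 and 15 reads in replicates 1, 2 and 3. Because replicate 1 held under 10 reads there, it is not a covered site. The next site, 29 bp on at 37249577, was methylated in 74 of 102 reads (72.5%), 131 of 177 (74.0%) and 124 of 176 (70.5%), a mean of 72.3% ± 1.79 (SD, n = 3). Its level differed little between libraries and lies just inside the high class. The site at 37249752, 175 bp further, was methylated in 0 of 17, 1 of 35 and 1 of 45 reads, a mean of 1.69% ± 1.5 (SD, n = 3). Summed over the libraries the levels were 100% (interval 90.3% to 100%), 72.3% (67.9% to 76.4%) and 2.06% (0.251% to 7.25%), and none of these intervals overlapped. The intervals cover counting error only, since copies of the same molecule may have been read more than once.

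The covered Pcdhg site lay near the end of the array, at 37981819, with no other listed site within 500 bp. It was methylated in 40 of 90 reads (44.4%), 44 of 76 (57.9%) and 28 of 78 (35.9%), a mean of 46.1% ± 11.1 (SD, n = 3). Replicate 2 was highest and replicate 3 lowest, with intervals of 46.0% to 69.1% and 25.3% to 47.6%. Of 22 partial sites elsewhere on chromosome 18 with 0.5 to 2 times its reads, 2 had an SD at least as large, and their median SD was 6.73 points. By the percent the authors adjusted with a factor per library, the covered sites averaged 41.7%, 82.8%, 2.94% and 60.7% in order of position, each higher than from the counts.

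**Figure D3:**
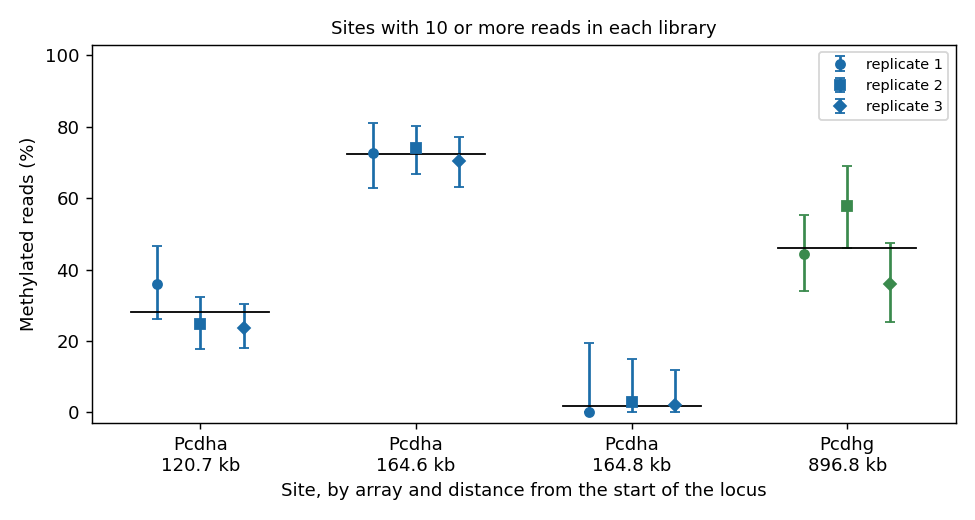
Methylated percent (y axis) of the 4 covered sites, named by array and distance from the start of the locus. Points are the 3 libraries with 95% exact Clopper-Pearson intervals and lines are their means, 28.1%, 72.3%, 1.69% and 46.1% from left to right; the libraries lie closest at the site at 72.3% and the site at 1.69% and furthest apart at the Pcdhg site.

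No covered site of the locus passed the test of a difference between libraries. With p-values from Fisher's exact test adjusted by Benjamini-Hochberg over all 24112 covered sites of the genome, and a minimum difference of 20 percentage points, the test called 0 of the 4 sites in any pair of libraries. Genome-wide it called 0.00415% of sites for replicate 1 against 2, 0.00415% for 1 against 3 and 0% for 2 against 3. Before adjustment, 2 of the 12 comparisons had an exact p under 0.05: 37981819 between replicates 2 and 3 (p = 0.00953, replicate 3 lower by a signed difference of -22.0 points) and 37205718 between replicates 1 and 3 (p = 0.0353, -12.1 points). Genome-wide, 3.02%, 3.0% and 2.84% of sites were under 0.05 for replicates 1 against 2, 1 against 3 and 2 against 3. The adjusted exact p was 1 in all 12, and the chi-square test of the same counts also called 0. Even the difference of -22.0 points at 37981819 was not called, so 0 calls at these depths do not show equal levels. Separate cultures are not stated for the libraries, so their spread may be technical.

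The array means rest on 3 sites and 1 site. The mean over the covered Pcdha sites was 36.1%, 33.8% and 32.1% in the 3 libraries, or 34.0% ± 2.0 (SD, n = 3), and the Pcdhg site lay higher by 12.0 points ± 10.7, in 3 of 3 libraries. By exact two-sided sign flips of the 3 libraries p was 0.25, which is the lowest value such a design can reach. The order of the arrays was not stable. With at least 20 reads in every library the Pcdha site at 1.69% was lost and the difference was -4.14 points. Without replicate 1 it was -2.85 and without replicate 2 it was -14.1, where coverage was asked only of the libraries kept and further sites entered. The SD over libraries does not measure the spread over sites, which was far wider, so no order of the arrays can be read from these means.

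Set beside other covered sites of chromosome 18, the protocadherin sites lay above or below depending on the match of spacing, the minimum of reads, the weights and the libraries kept. The 3 Pcdha sites have 2 listed neighbours within 500 bp each, and the 98 other covered sites of the chromosome with 2 neighbours averaged 31.3% ± 0.317 (SD, n = 3). Pcdha was higher by 2.75 points ± 2.22, in 3 of 3 libraries (exact sign-flip p = 0.25, two-sided), but lower, at -5.93 points, when sites were matched by the distance to the nearest site. It was higher by 18.7 points without replicate 1, by 18.5 and 20.7 points at minimums of 5 and 20 reads, and by 22.4 points with reads summed over sites. The Pcdhg site lay at -7.91 points ± 11.0 against the 174 sites with no neighbour, which averaged 54.0% (lower in 2 of 3 libraries, exact sign-flip p = 0.5, two-sided), and at 4.58 points when matched by distance. That difference was -3.41 points without replicate 3, -32.8 points without replicate 2 and -37.2 points at a minimum of 5 reads, the last 2 with a further site, and 5.12 points with reads summed. The 4 sites together differed from the 272 like-spaced sites by 0.0852 points ± 3.77 (exact sign-flip p = 1, two-sided), by -11.5 points without replicate 2, by 13.0 without replicate 1, by 2.05 without replicate 3, and by 12.1, 14.3 and 18.8 at 20 reads, at 50 reads and with reads summed. Partial levels were found at 2 of the 4 sites, against 12.2% of the sites with 2 neighbours, 16.7% of those with none and 13.8% of all 637 other covered sites of the chromosome. With 4 sites at 3 places, this count is a description.

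The number of reads at the covered sites also differed from like sites. The sites at 37205718, 37249577 and 37249752 held 440, 455 and 97 summed reads, against medians of 954, 1124 and 1595 at other covered chromosome 18 sites of the same class and number of neighbours. The Pcdhg site held 244, against a median of 110. The median log2 ratio of the 4 was -1.21.

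Neighbouring read sites differed in all 3 arrays, not only in Pcdha; these places were chosen after their values were seen. At the start of Pcdhb, the site at 37401582 was methylated in all of its 1, 3 and 4 reads in replicates 1, 2 and 3. The site 467 bp on, at 37402049, was methylated in 1 of 7, 0 of 8 and 0 of 2. Summed, these are 100% (interval 63.1% to 100%) and 5.88% (0.149% to 28.7%). Near the end of Pcdhg, the site at 37980099 was methylated in all of its 8 summed reads and that at 37981223 in 1 of 6. Next to them stood the covered site at 37981819, and 786 bp beyond it the site at 37982605 was methylated in 0 of 13, 0 of 6 and 0 of 16 reads. Its 0 of 35 summed reads allows a level of up to 10.0% by the exact interval. Of the 6 adjacent pairs of the locus up to 1 kb apart with at least 5 summed reads at each site, 2 differed by 70 points or more (33.3%), against 65 of 452 such pairs (14.4%) on the rest of the chromosome. The median difference was 53.0 points in the locus and 6.22 elsewhere. Beyond the minimum of reads, the pairs were not matched for depth or level. With at least 10 summed reads, 3 pairs remained and 1 of them differed that much. The 6 pairs come from 3 places and share sites.

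**Figure D4:**
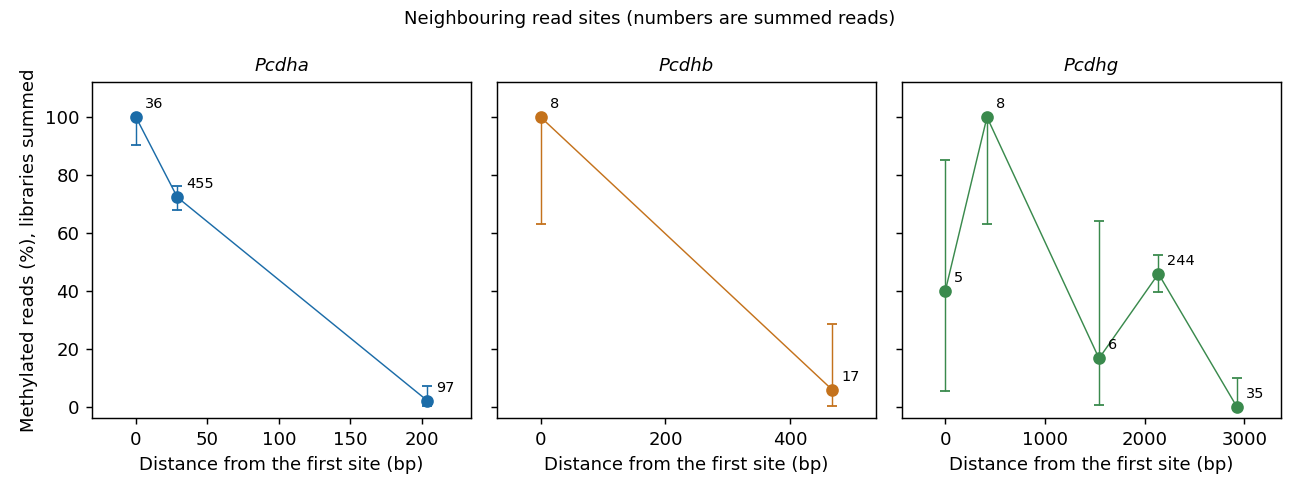
Methylated percent of summed reads (y axis) at neighbouring read sites of each array, by distance from the first of them in bp (x axis, a different length in each panel). Bars are 95% exact Clopper-Pearson intervals, numbers are summed reads and lines join the sites in order; the level goes from 100% to 2.06% in Pcdha and from 100% to 5.88% in Pcdhb, and ends at 0% in Pcdhg.

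The remaining 40 read sites were read too thinly for a level each, so their reads were summed by array, a measure added after the files were seen. Summed, their reads were mostly methylated: 211 of 318 (66.4%, interval 60.9% to 71.5%). The interval treats reads as independent and leaves out the spread over sites, so it is too narrow for a share over sites. Methylated reads alone were seen at 16 sites, unmethylated reads alone at 8 and a mixture at 16. On the rest of chromosome 18 these counts were 1263, 838 and 806 of 2907 thinly read sites. By library the methylated share of reads in the locus was 61.5%, 68.5% and 68.1%, or 66.0% ± 3.91 (SD, n = 3). Other thinly read sites of chromosome 18, weighted to the same distances, were at 56.0% ± 0.811. The locus was higher by 10.0 points ± 3.64 in 3 of 3 libraries (exact sign-flip p = 0.25, two-sided). When each site had equal weight it was higher by 2.67 points ± 2.85, not in every library (exact sign-flip p = 0.5, two-sided). Without the weights, the other sites held 60.7%, 61.6% and 59.7% methylated reads in replicates 1, 2 and 3.

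Among the arrays, thinly read Pcdha sites had the highest methylated share. It was 20 of 24 reads (83.3%), 24 of 29 (82.8%) and 29 of 36 (80.6%) in replicates 1, 2 and 3. In Pcdhb it was 14 of 21 (66.7%), 17 of 27 (63.0%) and 14 of 24 (58.3%), and in Pcdhg 17 of 37 (45.9%), 29 of 39 (74.4%) and 34 of 53 (64.2%). Pcdhb lay below Pcdha by a signed difference of -19.6 points ± 2.79 (SD, n = 3) and Pcdhg by -20.7 points ± 15.0, each in 3 of 3 libraries (exact sign-flip p = 0.25, two-sided). Pcdhg and Pcdhb differed by -1.17 points ± 17.2, with no common direction (exact sign-flip p = 1, two-sided). The Pcdha site at 37249548 held 36 of the 89 reads of its array. Without the deepest such site of each array, Pcdha was at 69.9%, Pcdhb at 45.2% and Pcdhg at 83.5%, so that Pcdhb lay further below Pcdha (-24.7 points) and Pcdhg above it (13.6 points), and with equal weight per site the arrays were at 65.5%, 64.6% and 65.0%. The thinly read sites therefore give no order of the arrays either.

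**Figure D5:**
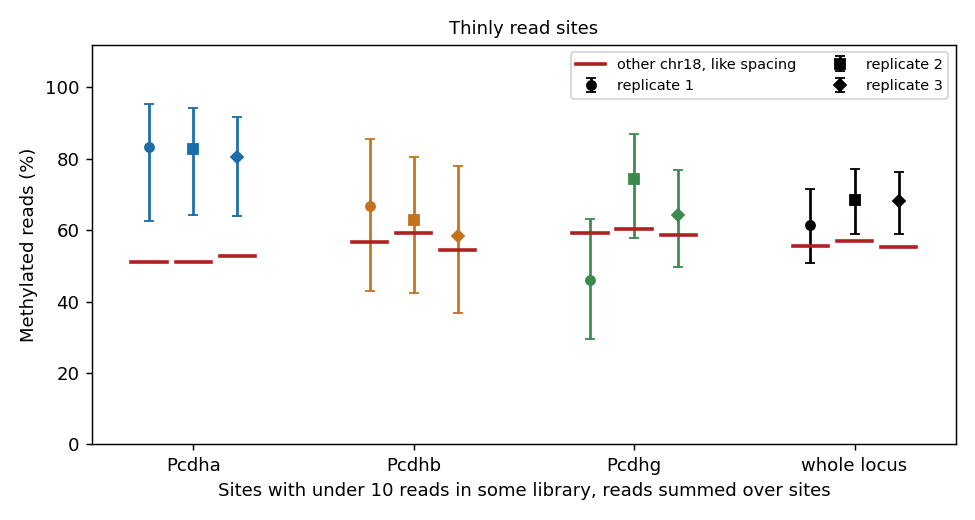
Methylated percent (y axis) of the reads at sites with under 10 reads in some library, summed by array and for the whole locus, in each library (points, with 95% exact Clopper-Pearson intervals). Red lines are other chromosome 18 sites weighted to the same distances. Pcdha lies above its line in 3 of 3 libraries, and the intervals of Pcdhb in 3 of 3 libraries hold their line. The intervals treat reads as independent and leave out the spread over sites.

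Of the 11 read Pcdhb sites, 5 had methylated reads alone, 2 had unmethylated reads alone and 4 had a mixture. The site at 37445350 was methylated in all of its 23 summed reads (7, 10 and 6 by library; interval 85.2% to 100%), while 37402049 was at 1 of 17. The other 9 read Pcdhb sites held 1 to 8 reads each, and 37409866 (3 of 5 methylated), 37669788 (3 of 5) and 37633555 (1 of 5) were mixed. The best read of the thin Pcdhg sites, apart from 37982605, were fully or almost fully methylated: 37968222 in 22 of 22 summed reads, 37962285 in 14 of 14 and 38004428 in 12 of 13. Between the arrays, the site at 37735620 was methylated in 12 of 16 reads and that at 37354687 in 0 of 6.

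The 500 kb on either side held fewer unread sites than the locus. Before the locus, 2 of 26 listed sites were covered, the nearest of them 261 kb away, with a mean of 76.3% ± 3.38 (SD, n = 3). After it, 8 of 64 were covered, the nearest 119 kb away, with a mean of 71.1% ± 1.26, and 6 of them were high, 1 partial and 1 low. Unread sites made up 11.5% and 7.81% of the listed sites on these sides, against 40.5% in the locus. On the rest of chromosome 18 the share was 32.6%, or 30.0% when weighted to the distances of the locus. The sides themselves were not matched for distance, and both lay below the share of the rest of the chromosome.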

How the data were processed

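Per the labels' protocols, DNA of 3 untreated ID8 samples was spiked with methylation standards, cut with SmaI and then XmaI, ligated to adaptors and run on a HiSeq2500. The submitters' processing notes name Bowtie2, SAMtools and the builds mm9 and rn4. Versions and the handling of duplicate reads: not given in the sources used here. The authors deposited raw counts of methylated, unmethylated and total reads per site, and 2 percent columns. The deposited raw percent is methylated over total reads, and in the adjusted percent the odds are multiplied by 1 factor per library (2.02, 1.81 and 1.73, from the values). A deposited table of the summed counts was not used here.

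Levels were computed in Python (pandas 2.3.3, scipy 1.17.1) as the mean of library percents over sites where each library held at least 10 reads. Spacing was the number of other listed sites within 500 bp, or the distance to the nearest one for unread and thinly read sites. Differences were tested by exact sign flips over libraries, and libraries by Fisher's exact test over all sites, checked on simulated counts. Named sites were to be the 3 deepest, the highest and the lowest of each array and those outside its most common class; with 4 covered sites, all are named, and other sites are named by reads or place, chosen after their values were seen. No Pcdhb site reached the minimum, so the planned Pcdhb comparisons could not be made, and no run held 3 covered sites. The members and lists were chosen with earlier results of these data known.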

Additional observations from a re-analysis of the deposited data

Results flagged for a closer look

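Reads were counted at 9 sites of the locus that the planned comparisons leave out, because some library held fewer than 10. Each has at least 10 summed reads. The 3 reads that a count of 0 allows hold per library, and some of these sites held no more than that in a library, such as 37962285 with 1 read in replicate 1. In Pcdha the sites left out are 37249548 with 36 summed reads and 37139745 with 16, all of them methylated. In Pcdhb they are 37445350 with 23 reads, all methylated, and 37402049 with 17, of which 16 were unmethylated. In Pcdhg they are 37982605 with 35 reads, 0 methylated, and 37968222 with 22, 37962285 with 14 and 38004428 with 13, of which 22, 14 and 12 were methylated. Between the arrays 37735620 had 16 reads, 12 of them methylated. By class 7 of the 9 were high, 2 low and 0 partial. Of the 545 such sites on the rest of chromosome 18, 323 were high, 117 low and 105 partial. Of the 4 covered sites of the locus, 2 were partial. A difference between these shares was not tested.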

How the results depend on the processing

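Each difference between arrays and each one against like-spaced sites turned its sign under some setting, except for the thinly read sites of the whole locus. Their mean over libraries lay above like-spaced ones, by 2.67 to 12.1 points, in all settings run. The lowest, at equal weight per site, was 2.67 points ± 2.85 (SD, n = 3, exact sign-flip p = 0.5, two-sided). Not every library lay above there. With a minimum of 5 reads Pcdha was at 50.5%, Pcdhg at 23.0%, the locus at 49.7% and Pcdhg minus Pcdha at -27.5 points, with 2 high sites in Pcdha and 1 in Pcdhb. At 20 reads Pcdha was at 50.2%, the locus at 48.8% and the difference at -4.14, and these were the same at 50 reads, where Pcdhg lay 1.73 points above like-spaced sites. By the adjusted percent the means were 42.5%, 60.7% and 47.1%, and Pcdhg lay 3.57 above like-spaced sites. With reads summed over sites Pcdha was at 46.2%, the locus at 45.9%, the difference at -0.10 and Pcdhg against like-spaced sites at 5.12. With at least 10 summed reads, chosen after seeing the data, the means were 60.4%, 67.0% and 62.9%, Pcdhb had 52.4%, and Pcdhg lay 1.44 above like-spaced sites. Without the deepest Pcdha site, also chosen later, Pcdha was at 14.9% and the locus at 25.3%, or -16.4 and -13.6 points against like-spaced sites. Spacing within 1 kb gave -7.03, 5.01 and -4.02 for Pcdha, Pcdhg and the locus, the nearest distance gave -5.93, 4.58 and -3.30, and all autosomes gave -1.14 for the locus. Leaving out each replicate gave 34.1% to 49.7% for Pcdha, 20.1% to 51.2% for Pcdhg, 28.5% to 49.2% for the locus, -14.1 to 16.2 for Pcdhg minus Pcdha, -11.5 to 13.0 for the locus against like-spaced sites, and 1 to 2 high Pcdha sites. Other minimums and left-out libraries change the sites by construction; for the other settings the cause was not tested.

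The alternatives for thinly read sites were chosen after seeing the data. With equal weight per site Pcdha was at 65.5%, the locus at 60.9% and Pcdhg minus Pcdhb at 0.401 points. With fewer than 10 summed reads Pcdha was at 56.4% (-2.93 against like-spaced sites), Pcdhb at 71.2% and the locus at 59.6%, and Pcdhb and Pcdhg lay 14.8 and 14.5 above Pcdha. Without the deepest site per array the arrays were at 69.9%, 45.2% and 83.5%, Pcdhb lay -6.71 from like-spaced sites, and Pcdhg lay 13.6 above Pcdha and 38.3 above Pcdhb. The library factor gave 89.5% for Pcdha, 75.4% for Pcdhb and 78.2% for the locus. Matching on neighbours put Pcdhg at -0.788 from like-spaced sites. Leaving out each replicate gave -3.92 to 9.83 for Pcdhg against sites matched by distance (2.10 with all libraries), and -7.45 to 8.61 for Pcdhg minus Pcdhb. The count of 0 sites that differ between libraries was the same at 20 and 50 reads, by the chi-square test, with no minimum difference and without each replicate. At these depths that count does not show that the levels were equal. No paired comparison of sample groups was possible because there is only 1 group. Differences between arrays were taken within each library. Depth limits these values: 70 of 74 sites had under 10 reads in some library.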
